A study of Mus musculus with 48 samples.

Results

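The effect of a CB1 deletion in GABAergic neurons that is shared by home cage and stimulated mice was measured in the GABA-CB1 line, by comparing 11 GABA-CB1-KO with 13 GABA-CB1-WT libraries. These 24 libraries are all those of the line among the 48 of the series and were chosen by line and genotype in the sample labels, not by any measured value. All mice were males of the strain dlx5/6-Cre x CB1f/f, labelled as 8 weeks old, and each library holds RNA of the hippocampal cornu ammonis (CA) of 1 mouse, dissected after removal of the dentate gyrus. Both genotypes share this strain label, which names floxed CB1 alleles in WT and KO mice alike. The regulatory elements of *Dlx5/6* drive Cre in forebrain GABAergic neurons, so that CB1 stays intact in glutamatergic neurons and glia. In the basal state (home cage) there were 6 GABA-CB1-WT and 6 GABA-CB1-KO libraries, and after exposure of the mice to an open field arena for 5 minutes there were 7 and 5. The text of the study gives the open field sizes of this line in the reverse order, and the labels were kept because each library's *Cnr1* level matched its genotype label. By the study's methods, samples were selected for purity of the tissue and, after the open field, for behaviour and for neuronal activity. State was a covariate, so that a gene was compared within home cage mice and within open field mice, and both differences were combined into 1 log2 fold change (KO minus WT).

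CB1 is the main cannabinoid receptor of the brain and sits mostly on axon terminals. Postsynaptic neurons release endocannabinoids, which travel backwards across the synapse, activate CB1 and, through Gi/o proteins, lower the release of transmitter. In the hippocampus the receptor is most abundant on the terminals of the basket cells that contain cholecystokinin (CCK), while the interneurons that contain somatostatin or parvalbumin carry little of it.

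The libraries held 25892654 to 34091080 reads assigned to genes, and 15374 of 24421 listed genes had enough reads to be tested. The second principal component set 5 libraries apart from the other 19, namely GABA-CB1-WT basal replicates 1 and 5, GABA-CB1-KO basal replicate 2, GABA-CB1-WT open field replicate 1 and GABA-CB1-KO open field replicate 3. In 2 more libraries, GABA-CB1-WT basal replicate 3 and GABA-CB1-KO open field replicate 4, the summed level of 11 choroid plexus markers reached 2375 and 5447 CPM (counts relative to the normalised library total), against at most 329 CPM in the others. Neither the first component (p = 0.52, exact permutation test within states, two-sided) nor the second (p = 0.56, same exact test) differed between the genotypes beyond the spread of the libraries. A further library, GABA-CB1-KO open field replicate 1, was the one of its group nearest to the WT libraries in 29 of the 54 genes named as changed below other than *Cnr1*, whereas the same number lay between 1 and 18 for each of the other 23 libraries. This library was picked out by the changed genes themselves, so larger differences without it, here and below, are no further evidence for them. Counts of genes are given with and without the libraries named in this paragraph.

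*Cnr1* (mm10, chromosome 4, 33924632–33948831), which encodes CB1, showed that the genotype labels and the libraries match. Its level in GABA-CB1-WT mice ran from 312 to 390 CPM in the basal state (median 347) and from 337 to 394 CPM after open field exposure (median 368). In GABA-CB1-KO mice it ran from 140 to 159 CPM in the basal state (median 150) and was 154, 130, 143, 101 and 147 CPM after open field exposure. Every KO library lay below every WT library. Within each genotype the ranges of the states overlapped, so *Cnr1* does not check the state labels. The log2 fold change (log2FC) over both states was −1.34, with a standard error (SE) of 0.06. Its adjusted p was 4.56e-15 (quasi-likelihood F test of edgeR, Benjamini-Hochberg over all genes tested, as for every adjusted p of a gene below), which leaves 39.5% of the WT level in the CA tissue. The lowest KO value, 101 CPM, belongs to the library with the most choroid plexus RNA. In tissue RNA, a loss of cells of a type and less RNA per cell cannot be told apart, here and for every gene below.

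Genes with an adjusted p-value under 0.05 were taken as differentially expressed genes (DEGs). There were 55 DEGs, or 0.358% of the genes tested, of which 16 were higher in GABA-CB1-KO mice (0.104%) and 39 were lower (0.254%). At an unadjusted p-value under 0.05 there were 1257 genes, 8.18% of those tested. The differences were mostly small. The median absolute log2FC of the DEGs was 0.29, 42 of the 55 stayed under 0.5, and 3 exceeded 1 (*Cnr1*, *Galnt5* and *Rspo1*), while the median over all genes tested was 0.00. Without the 5 libraries that stand apart there were 35 DEGs, 30 of them among the 55, and without the 2 libraries rich in choroid plexus RNA there were 64, with 43 among the 55. Without both sets there were 22, with 18 among the 55 (*Cnr1*, *Pdlim1*, *Ostf1*, *Gpr83*, *Blnk*, *Gadd45g*, *Sst*, *Rspo1*, *Stard5*, *Lipg*, *Pam*, *Dpy19l3*, *Ccnjl*, *Ier5*, *Mycl*, *Lgr5*, *Fars2* and *Cage1*). The other 37 DEGs then had an adjusted p between 0.0524 and 0.403. DESeq2, the tool of the study, called 131 genes in all 24 libraries, all 55 among them. When GABA-CB1-KO open field replicate 1 was left out, the number rose to 137 (36 higher, 101 lower), with all 55 among them.

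Besides *Cnr1*, 5 genes separated all KO from all WT libraries in both states, and all of them were lower in KO mice. The 6 genes make up 0.039% of the genes tested. The largest change among these 5 was that of *Pdlim1* (chromosome 19, 40222239–40271616), which encodes a cytoskeletal PDZ-LIM protein that binds α-actinin. Its WT levels were 2.30 to 3.07 CPM in the basal state (median 2.52) and 2.36 to 2.94 CPM after open field exposure (median 2.86). The KO levels were 1.17 to 1.92 CPM (median 1.67) in the basal state, and 1.26, 1.2, 1.44, 1.48 and 1.17 CPM after open field exposure. KO mice thus had 54.9% of the WT level (log2FC −0.86, SE 0.09, adjusted p = 3.01e-06).

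*Gpr83* (chromosome 9, 14860254–14869499) encodes a G protein-coupled receptor. It had 11.03 to 12.7 CPM in basal WT libraries (median 11.8) and 10.8 to 12.9 CPM in WT libraries of the open field (median 11.9). In KO libraries it had 8.54 to 10.7 CPM (median 9.86) in the basal state and 10.2, 8.87, 9.08, 9.30 and 8.59 CPM after open field exposure. The groups came close to each other without touching, and the log2FC was −0.32 (SE 0.04, adjusted p = 2.04e-04). *Gadd45g* (chromosome 13, 51846675–51848474), a growth arrest gene that stress and neuronal activity induce, fell to 67.1% of the WT level. WT libraries had 4.88 to 6.97 CPM in the basal state (median 5.95) and 5.16 to 6.71 CPM after open field exposure (median 5.30). KO libraries had 3.25 to 4.55 CPM (median 3.69), and after open field exposure 4.66, 3.63, 3.12, 4.66 and 4.53 CPM (log2FC −0.58, SE 0.08, adjusted p = 4.80e-04).

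*Lipg*, which encodes endothelial lipase, fell by 0.59 on the log2 scale (SE 0.09, adjusted p = 9.92e-04). Its WT medians were 3.70 CPM in the basal state and 4.10 CPM after open field exposure, and its KO medians were 2.73 and 2.46 CPM. *Fxyd7* (chromosome 7, 31042515–31051454) encodes a small regulator of the sodium pump. The WT range was 27.4 to 31.9 CPM in the basal state and 26.4 to 30.9 CPM after open field exposure, and the KO range was 20.2 to 27.3 and 23.2 to 25.8 CPM (log2FC −0.24, SE 0.04, adjusted p = 0.00225). Leaving out the 5 libraries apart together with the 2 rich in choroid plexus RNA ended this call (adjusted p = 0.0606) but not those of *Cnr1*, *Pdlim1*, *Gpr83*, *Gadd45g* and *Lipg*.

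**Figure D1:**
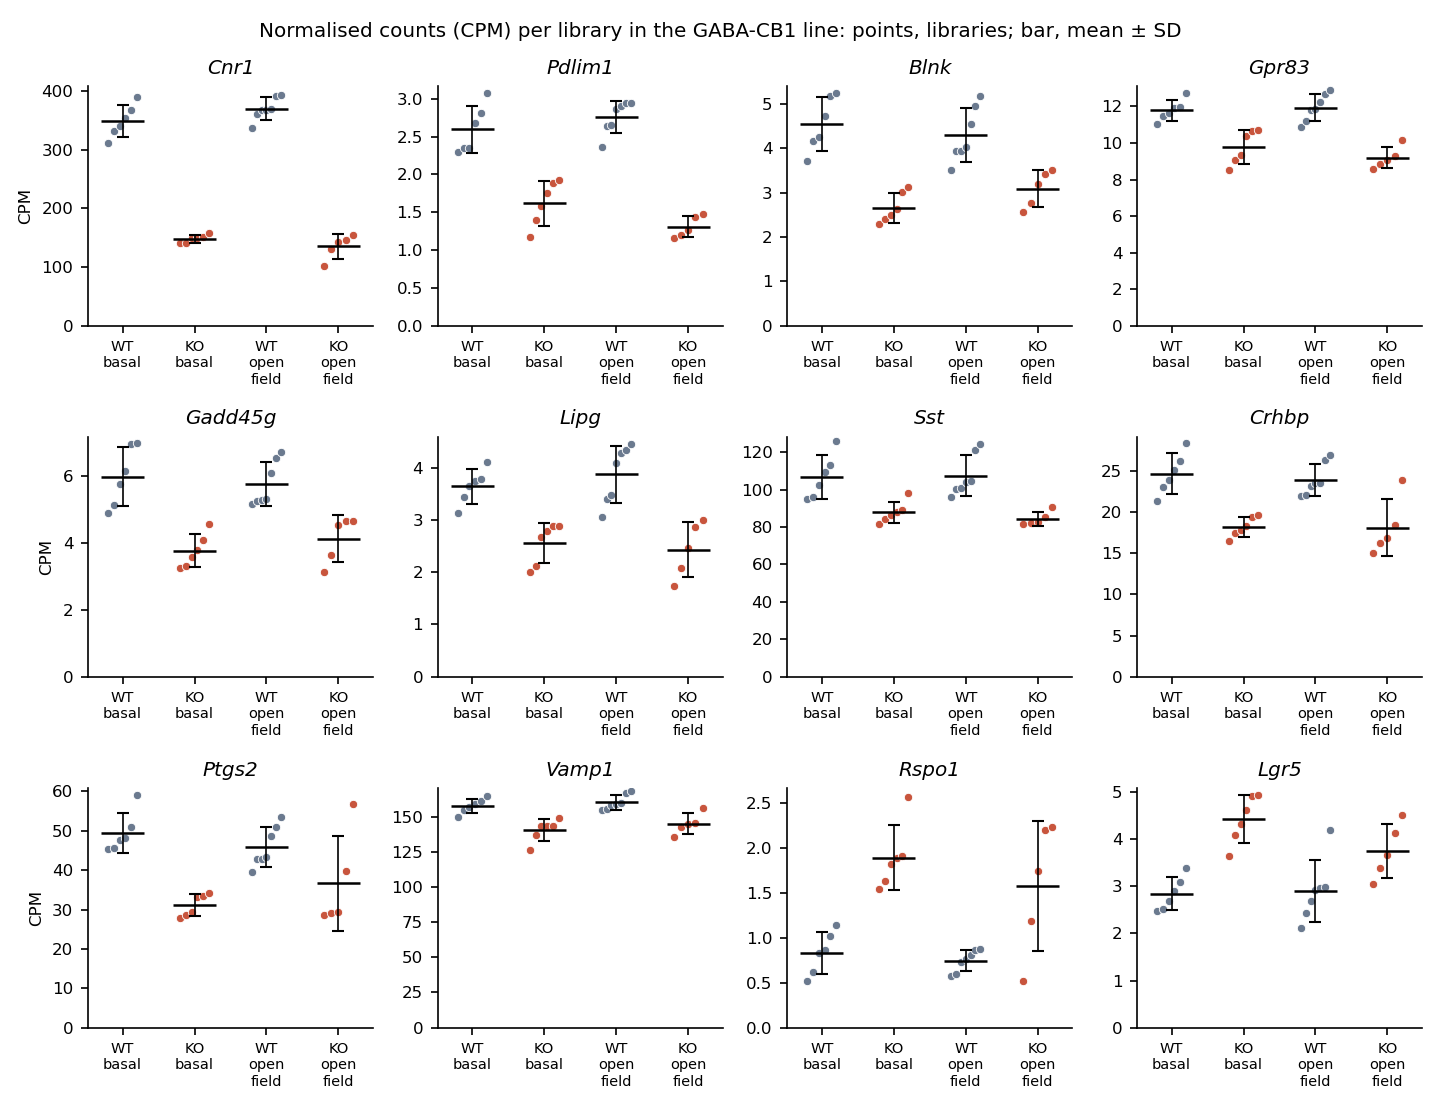
Level of 12 DEGs (CPM, from 0) in each of the 24 libraries of the GABA-CB1 line, by genotype and state; points are libraries, bars are means and SD. *Cnr1*, *Pdlim1*, *Gpr83*, *Gadd45g* and *Lipg* separate the genotypes in both states, *Rspo1* and *Lgr5* are higher in KO mice, and 1 KO library of the open field lies apart from its group, on the side of the WT libraries, for *Rspo1* (0.517 CPM), *Ptgs2* (56.7 CPM) and *Crhbp* (23.96 CPM).

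Markers of interneurons other than the CCK and VIP types were lower in part. Of 16 such markers, 3 were DEGs, all lower, and 13 of the 16 had a lower mean in KO mice, with a median log2FC of −0.07 against 0.00 over all genes tested. Over all genes tested, 0.254% were lower DEGs and 7549 of 15374 had a lower mean. The lists were chosen with earlier results of these data known, so no direction is read from these counts, here and for the lists below. *Sst* (chromosome 16, 23889581–23890844), the precursor of somatostatin, a peptide that inhibits principal cell dendrites together with GABA, had 94.7 to 126 CPM in basal WT libraries (median 106) and 96.2 to 124 CPM in WT libraries of the open field (median 104). KO libraries had 81.8 to 98.0 CPM in the basal state (median 87.3) and 90.8, 82.1, 81.6, 82.5 and 85.1 CPM after open field exposure. The groups overlapped in the basal state and not after open field exposure, and over both states the gene fell to 80.4% of the WT level (log2FC −0.31, SE 0.05, adjusted p = 8.60e-04).

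*Crhbp* (chromosome 13, 95431376–95444831), the binding protein that takes corticotropin-releasing hormone out of action, is a marker of somatostatin interneurons as well. It had 21.3 to 28.5 CPM in basal WT mice (median 24.6) and 21.9 to 26.96 CPM in WT mice of the open field (median 23.6). In KO mice it had 16.5 to 19.7 CPM (median 18.1) in the basal state and 23.96, 16.8, 16.3, 15.1 and 18.4 CPM after open field exposure, so that replicate 1 alone kept the open field groups from separating. The log2FC was −0.42 (SE 0.06, adjusted p = 5.01e-04), and −0.48 without that library. Without both sets of libraries that stand apart the call was lost (adjusted p = 0.0713). *Pvalb*, the calcium buffer of fast-spiking basket cells, fell by 0.17 (SE 0.04, adjusted p = 0.0260), with medians of 29.7 and 28.3 CPM in WT and 25.5 and 26.4 CPM in KO mice. This call was kept in 16 of the 24 fits without 1 library, with a largest adjusted p of 0.0622 (without GABA-CB1-WT basal replicate 6).

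Other members of the group did not pass. *Npy* had a log2FC of −0.25 (adjusted p = 0.0851) and *Tac1*, the precursor of substance P, one of −0.33 (adjusted p = 0.0817). *Gad1* and *Gad2*, the enzymes that make GABA, had values of −0.07 (adjusted p = 0.362) and −0.04 (adjusted p = 0.829). None of 11 markers of the CCK and VIP interneurons, the cells richest in CB1, was a DEG, where 0.358% of all genes tested were. Of the 11, 8 had a higher and 3 a lower mean, against 7825 of the 15374 genes tested with a higher mean. Their median was 0.06, and *Cck* itself had a log2FC of −0.01 (SE 0.04, adjusted p = 0.967). The summed level of the 16 markers lay between 1126 and 1301 CPM in basal WT and between 1124 and 1236 CPM in basal KO libraries, and between 1179 and 1263 CPM in WT and between 1119 and 1197 CPM in KO libraries of the open field. The difference of these sums missed the threshold (p = 0.0194, exact permutation test within states, two-sided, adjusted p = 0.144 over 17 marker lists). So did that of the 11 CCK and VIP markers (adjusted p = 0.77, same test). With mean log2 CPM in place of sums, the difference was −0.11 for the 16 markers and 0.06 for the 11 (adjusted p = 0.19 for each, same test).

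The start region of *Sst* is known for its cyclic AMP response element (CRE), through which neuronal activity and cyclic AMP drive the gene, and the DEGs were therefore searched for this element. Promoter sequences (250 bases before and 50 after a gene start, RefSeq, GRCm38.p6) were matched for 47 of the 55 DEGs, which had 61 promoters. The CRE, written as TGACGTCA and equal on both strands, was found in 2 of the 61 (*Sst* and *Slc18a2*) and in 1.79% of all 32851 promoters. The AP-1 element, TGANTCA, was found in 5 of the 61 (*Adgrf4*, *Aldh1a1*, *Bdnf*, *Nlrp6* and *Tnfrsf9*) and in 7.81% of all promoters. The EGR element, GCGTGGGCG on either strand, was found in none of the 61 and in 0.612% of all promoters. The stretches before the start of *Sst* (chr16:23890845-23890932, minus strand), *Slc18a2* (chr19:59260834-59260881, plus strand, ending at the element itself, which begins 4 bases before the gene start) and *Bdnf* (chr2:109676840-109676926, plus strand, 1 of the starts of this gene) are shown because these are DEGs of the peptide, transmitter and activity groups, with the element in capitals. A match is a description of the letters only.
Sst, CRE: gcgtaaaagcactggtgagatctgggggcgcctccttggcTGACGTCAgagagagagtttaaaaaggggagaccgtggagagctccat
Slc18a2, CRE: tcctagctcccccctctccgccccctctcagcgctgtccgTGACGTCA
Bdnf, AP-1: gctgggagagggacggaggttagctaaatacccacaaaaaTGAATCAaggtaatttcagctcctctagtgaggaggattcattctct

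Of 32 immediate early and activity-driven genes, 4 were DEGs, all lower, and 24 had a lower mean in KO mice. Over all genes tested, 0.254% were lower DEGs and 7549 of 15374 had a lower mean. The median log2FC of the 32 genes was −0.07. Besides *Gadd45g*, the DEGs of this list were *Ptgs2*, *Bdnf* and *Ier5*. *Ptgs2* (chromosome 1, 150100124–150108012) encodes the inducible cyclooxygenase, which makes prostaglandins and also oxygenates endocannabinoids. Its WT levels were 45.4 to 59.2 CPM in the basal state (median 47.9) and 39.6 to 53.5 CPM after open field exposure (median 43.4). KO libraries had 27.9 to 34.3 CPM in the basal state (median 31.2), clear of all WT libraries, and 56.7, 28.5, 29.3, 29.1 and 39.7 CPM after open field exposure, where replicate 1 lay above every WT library. The log2FC was −0.50 (SE 0.09, adjusted p = 0.0102). Without replicate 1 it was −0.61, and without both sets of libraries that stand apart it was not called (adjusted p = 0.14).

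*Bdnf* (chromosome 2, 109674700–109727043), the neurotrophin of activity-dependent plasticity, had medians of 50.0 and 55.6 CPM in WT and of 39.2 and 39.7 CPM in KO mice. Its lowest WT library, at 42.9 CPM, lay below the highest KO library, at 52.9 CPM, so that the groups overlapped, and the log2FC was −0.34 (SE 0.07, adjusted p = 0.0131). Without both sets of libraries that stand apart it was not called (adjusted p = 0.168). *Ier5*, an immediate early gene of the stress response, fell by 0.34 (SE 0.06, adjusted p = 0.00584), with medians of 24.1 and 27.7 CPM in WT and 19.1 and 20.2 CPM in KO mice. The best known activity markers did not pass. *Fos* had a log2FC of −0.14 (SE 0.26, adjusted p = 0.947), *Arc* of 0.03 (SE 0.15, adjusted p = 0.984) and *Egr1* of 0.09 (SE 0.09, adjusted p = 0.875). Over both states, *Npas4* and *Fosb* had values of −0.39 and −0.54 (adjusted p = 0.195 and 0.298). The open field value of *Fosb* is given below.

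Genes of vesicle release and peptide processing contributed 4 DEGs, all lower. Of 44 genes of the release machinery, 3 were DEGs and 34 had a lower mean in KO mice (median −0.03). Over all genes tested, 0.254% were lower DEGs and 7549 of 15374 had a lower mean. *Vamp1* (chromosome 6, 125215581–125222306), a vesicle SNARE protein of fast synapses, had 150 to 164 CPM in basal WT libraries (median 158) and 126 to 149 CPM in basal KO libraries (median 143). After the open field it had 154 to 168 CPM in WT libraries (median 159) and 156, 145, 144, 135 and 143 CPM in KO libraries. The change was small and tight (log2FC −0.16, SE 0.03, adjusted p = 0.00253), and without both sets of libraries that stand apart the adjusted p was 0.107. *Unc13b*, a vesicle priming factor, fell by 0.16 (SE 0.03, adjusted p = 0.0210), but this call was lost in 3 fits without 1 library and with all 48 libraries in one fit (adjusted p = 0.267). *Rab3b*, a vesicle GTPase of the same list, just missed the threshold with −0.20 (adjusted p = 0.0503).

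*Slc18a2* (chromosome 19, 59260878–59296012), the vesicular transporter that loads monoamines, had 3.23 to 4.79 CPM in basal WT libraries (median 3.68) and 1.38 to 2.67 CPM in basal KO libraries (median 2.09). In WT mice of the open field it had 3.00 to 4.48 CPM (median 3.82), and in KO mice 4.66, 1.99, 1.93, 2.30 and 2.53 CPM. Apart from replicate 1, every KO library lay below every WT library of its state. The log2FC was −0.68 (SE 0.13, adjusted p = 0.0131), and it was −0.83 without replicate 1, while the adjusted p without both sets of libraries that stand apart was 0.22. Other markers of monoaminergic fibres did not pass. *Th* had a value of −0.04 (adjusted p = 0.98) and *Ddc* of 0.04 (adjusted p = 0.927), and the summed level of the 8 markers of this list, which include *Slc18a2*, was lower in KO mice (mean difference −1.56 CPM, adjusted p = 0.0274, exact permutation test within states, two-sided), a call lost with mean log2 CPM in place of sums (adjusted p = 0.223) and when any 1 of WT basal replicate 3, WT open field replicates 1 and 3 or KO open field replicates 2, 3 and 4 was left out. *Slc18a2* itself made up −1.8 of the −1.9 CPM in the basal state and −1.03 of the −1.22 CPM after open field exposure, so that this sum largely repeats the gene. No other of the 17 marker lists passed, with adjusted p between 0.144 and 0.953. All 11 choroid plexus markers had a higher combined value in KO mice (median log2FC 0.75). Their median was −1.12 in the basal state and 2.43 after open field exposure, the states that hold the rich libraries WT basal replicate 3 and KO open field replicate 4. Of 7 tested markers of hypothalamus and pituitary, 6 were higher in KO mice (median 1.07, 3 at an unadjusted p under 0.05). Their sum was highest in KO basal replicate 3 (218 CPM, next in its group 55.7). All 14 endothelial and mural markers had a lower mean (median −0.07). The part of these markers in the results was not tested. *Pam* (chromosome 1, 97821094–98095632), which amidates many neuropeptides, fell by 0.14 (SE 0.02, adjusted p = 0.00225), from medians of 223 and 226 CPM to 207 and 195 CPM. It was 1 of 6 prohormone processing enzymes tested and the only DEG among them. Of 29 neuropeptide and granin genes, *Sst* was the only DEG. Over all genes tested, 0.358% were DEGs. *Chgb* and *Scg2*, granins of the dense core vesicle, had values of −0.25 and −0.16 (adjusted p = 0.0625 and 0.0711).

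The DEGs of the Wnt list were higher in KO mice. Of 47 Wnt ligands, receptors and modulators tested, 3 were DEGs, all higher, with a list median of 0.02, 28 members with a higher and 19 with a lower mean. Over all genes tested, 0.104% were higher DEGs and 7825 of 15374 had a higher mean. *Rspo1* (chromosome 4, 124986430–125009099) encodes R-spondin 1, a secreted protein that amplifies Wnt signalling by binding Lgr receptors. It was a gene of low counts, with 0.521 to 1.14 CPM in basal WT libraries (median 0.850) and 0.580 to 0.872 CPM in WT libraries of the open field (median 0.760). KO libraries had 1.55 to 2.57 CPM in the basal state (median 1.85) and 0.517, 2.24, 1.19, 1.74 and 2.20 CPM after open field exposure. All KO libraries but replicate 1 of the open field thus lay above all WT libraries of their state, and the level was 219% of that in WT mice (log2FC 1.13, SE 0.17, adjusted p = 8.60e-04).

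*Lgr5* (chromosome 10, 115450314–115587780), one of the receptors of R-spondins, was higher as well. It had 2.49 to 3.39 CPM in basal WT libraries (median 2.81) and 3.65 to 4.95 CPM in basal KO libraries (median 4.48), with no overlap. After the open field it had 2.12 to 4.20 CPM in WT libraries (median 2.92) and 3.40, 3.66, 4.52, 3.06 and 4.13 CPM in KO libraries, with overlap. The log2FC was 0.50 (SE 0.09, adjusted p = 0.0101). *Nkd2*, an inhibitor of Wnt signalling that binds Dishevelled, rose by 0.31 (SE 0.07, adjusted p = 0.0369), a call kept in 9 of the 24 fits without 1 library. *Rspo2*, a close relative of *Rspo1*, had a value of −0.19 (adjusted p = 0.506), and *Lgr4* one of −0.05 (adjusted p = 0.752).

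The remaining DEGs are grouped here by their known function, a grouping made after their values were seen, so that no direction is read from a group. The first 6 are best known from immune and blood cells. *Blnk* (chromosome 19, 40928927–40994535), an adaptor of B cell receptor signalling, had 3.71 to 5.26 CPM in basal WT libraries (median 4.49) and 2.29 to 3.13 CPM in basal KO libraries (median 2.57). WT libraries of the open field had 3.52 to 5.18 CPM (median 4.04), and KO libraries 3.52, 2.78, 2.56, 3.42 and 3.197 CPM, so that the groups touched at 1 library. The log2FC was −0.63 (SE 0.08, adjusted p = 2.04e-04). *Ostf1*, an SH3 protein known from osteoclasts, fell by 0.34 (SE 0.04, adjusted p = 2.04e-04), from medians of 17.7 and 16.3 CPM to 13.4 and 13.5 CPM. *Lmo2*, a LIM-only transcription cofactor of blood formation, fell by 0.20 (adjusted p = 0.00150), and *Rasgrp1*, an exchange factor that activates Ras, by 0.19 (adjusted p = 0.0309). *Tnfrsf9*, a receptor of the TNF family, fell by 0.82 (SE 0.18, adjusted p = 0.0369) at levels under 1.1 CPM, and *Nlrp6*, an innate immune sensor, rose by 0.55 (SE 0.12, adjusted p = 0.0339) at levels under 2 CPM. None of 12 microglial markers was a DEG, and their median was −0.01.

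Receptors, adhesion molecules and matrix proteins formed a further group. *Adgrf4*, an adhesion G protein-coupled receptor (−0.40, adjusted p = 0.00501), *Ephb1*, a receptor for ephrin-B (−0.22, adjusted p = 0.0131), *Dner*, a neuronal transmembrane protein that binds Notch (−0.13, adjusted p = 0.00818), *Sorcs3*, a sorting receptor (−0.23, adjusted p = 0.0102), and *Lypd6*, which modulates nicotinic receptors (−0.20, adjusted p = 0.0339), all fell. *Lrrtm1*, a postsynaptic adhesion protein of excitatory synapses, rose by 0.11 (SE 0.02, adjusted p = 0.0346), the smallest absolute value among the DEGs named here. The 4 DEGs that encode matrix or other extracellular proteins of this group were lower, namely *Col11a1*, a fibrillar collagen chain (−0.29, adjusted p = 0.0210), *Spock3*, a proteoglycan (−0.29, adjusted p = 0.0390), *Thsd4* (−0.20, adjusted p = 0.0303) and *Nell1* (−0.13, adjusted p = 0.0260). Of 3 DEGs for enzymes that attach sugars to proteins, *Dpy19l3*, a mannosyltransferase, fell by 0.23 (SE 0.04, adjusted p = 0.00575), *Galnt14* by 0.23 (adjusted p = 0.0386) and *Galnt5* by 1.4 (SE 0.30, adjusted p = 0.0305). *Galnt5* had at most 0.586 CPM in any library, so its value rests on few reads.

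Metabolic and intracellular genes went both ways. *Stard5*, a sterol-binding protein, rose by 0.30 (SE 0.05, adjusted p = 8.60e-04), from medians of 17.2 and 18.3 CPM in WT to 20.9 and 23.5 CPM in KO mice. Higher too were *Mycl*, a transcription factor of the Myc family (0.20, adjusted p = 0.0101), *Ccnjl*, a cyclin-like gene (0.30, adjusted p = 0.00575), *Fars2*, the mitochondrial synthetase that charges phenylalanine tRNA (0.30, adjusted p = 0.0131), *Fibin* (0.50, adjusted p = 0.0114), *Dok4*, a docking protein of receptor tyrosine kinases (0.17, adjusted p = 0.0131), *Jph4*, a junctophilin that ties the endoplasmic reticulum to the plasma membrane (0.13, adjusted p = 0.0346), *Vps25*, an ESCRT subunit (0.11, adjusted p = 0.0353), *Capn5*, a calpain (0.14, adjusted p = 0.0369), and *1700017B05Rik* (0.18, adjusted p = 0.0351). *Dok4* overlaps *Polr2c* on the opposite strand, and since the kit did not mark strand, reads of the overlap cannot be told apart. Lower were *Stac2*, an adaptor of calcium channels (−0.29, adjusted p = 0.0210), *Aldh1a1*, an enzyme of retinoic acid synthesis (−0.21, adjusted p = 0.0369), *Ppm1h*, a phosphatase (−0.12, adjusted p = 0.0258), *Ankrd33b* (−0.16, adjusted p = 0.0131), *Cage1* (−0.36, adjusted p = 0.0210) and *Pxdc1* (−0.26, adjusted p = 0.0257).

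The endocannabinoid system and the signalling below CB1 showed little change besides the deleted receptor. Of 17 tested genes of the system, *Cnr1* and *Ptgs2* were the DEGs, where 0.358% of all genes tested were DEGs. *Dagla*, which makes the endocannabinoid 2-AG, had a log2FC of 0.04 (SE 0.04, adjusted p = 0.907), *Mgll*, which degrades it, one of −0.05 (SE 0.03, adjusted p = 0.767), and *Faah*, which degrades anandamide, one of 0.02 (SE 0.03, adjusted p = 0.917). None of 25 genes of Gi/o signalling was a DEG. The same held for 23 genes of GABA synthesis, transport and receptors (median −0.03), 30 glutamate receptor genes (−0.02), 59 potassium channel subunits (−0.01), 27 calcium, sodium and HCN channels (−0.01), 63 subunits of the respiratory chain (−0.02) and 18 factors of the interneuron lineage (0.00). At an unadjusted p-value under 0.05, these lists held 1 of 25, 5 of 23, 5 of 30, 5 of 59, 5 of 27, 4 of 63 and 1 of 18 genes in the same order, against 8.18% of all genes tested. The shares of the GABA, the glutamate receptor and the calcium, sodium and HCN lists lay above that of all genes, and that of the potassium channels near it. *Dlx5* and *Dlx6*, whose regulatory elements drive Cre, had values of 0.02 and 0.17 (adjusted p = 0.984 and 0.700).

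**Figure D2:**
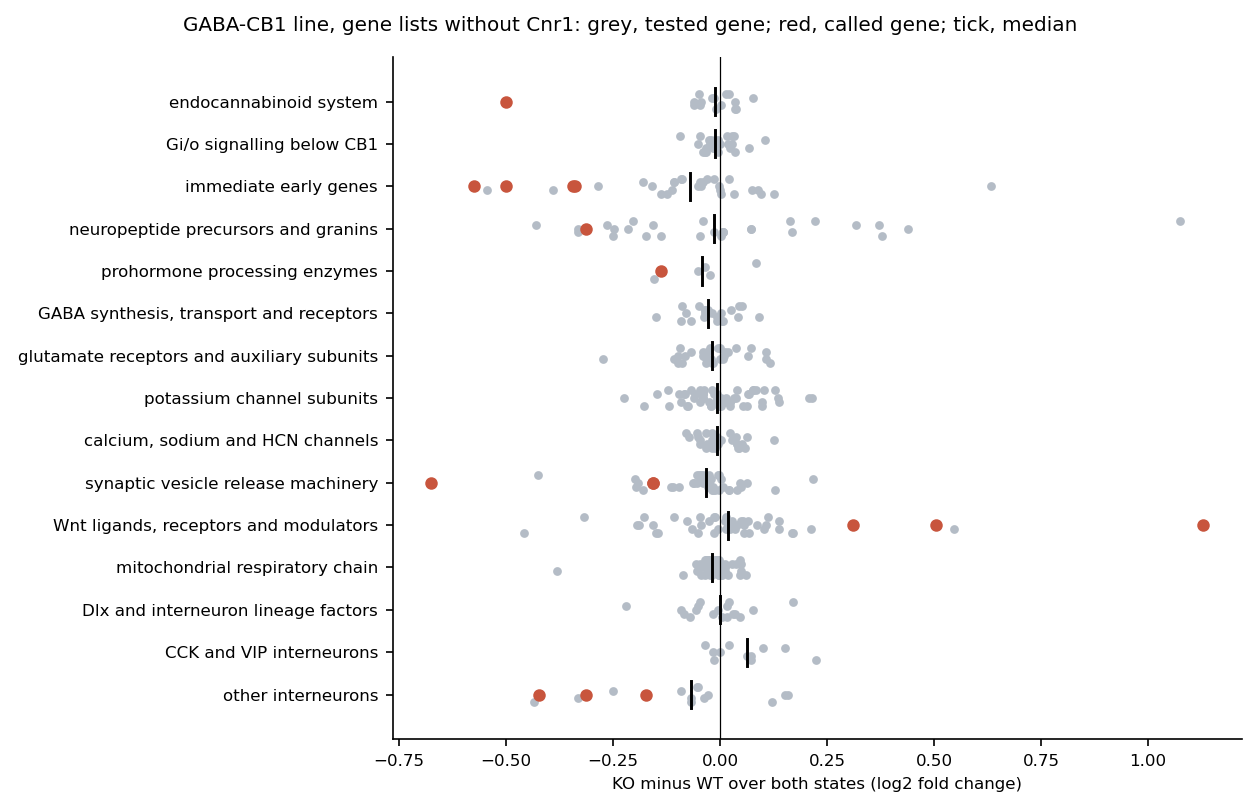
Log2 fold change over both states (KO minus WT, x axis) of every tested gene in 13 pathway lists and 2 interneuron marker lists (rows), without *Cnr1*; red points are DEGs and ticks are list medians. The DEGs of the immediate early, vesicle release and interneuron lists lie below 0 and those of the Wnt list above 0, while the list medians stay between −0.07 and 0.06.

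Of the 12 genes that the study named from these samples, *Blnk*, *Sst*, *Crhbp* and *Bdnf* were DEGs over both states. Since they were chosen on the same samples, their values here are not independent evidence of a direction. The study named *Blnk*, *Nr4a2* and *Grin2b* in the basal state and the others after open field exposure. It also measured *Nr4a2*, *Grin2b*, *Fosb*, *Crhbp*, *Bdnf* and *Npy* by RT-qPCR in independent samples, which are not part of these counts. *Kcnn2*, a calcium-activated potassium channel, had a value of −0.12 (adjusted p = 0.242), *Ldb2*, a transcription cofactor, one of −0.14 (adjusted p = 0.751), *Sptb*, an erythroid spectrin, one of 0.02 (adjusted p = 0.904) and *Nr4a2* one of −0.04 (adjusted p = 0.97). For 3 of these, values of opposite sign stand behind the combined one. *Sptb* had −0.06 in the basal state and 0.11 after open field exposure, *Ldb2* 0.08 and −0.37, and *Nr4a2* 0.19 and −0.27. The interaction of genotype and state had an unadjusted p under 0.05 for each of these 3 genes, and none passed adjustment (adjusted p = 0.201, 0.249 and 0.338). After open field exposure alone, *Kcnn2* had −0.17, *Rab3b* −0.27 and *Fosb* −0.78 (adjusted p = 0.113, 0.0577 and 0.109, edgeR). KO and WT libraries of the open field did not overlap for these genes, nor for *Ldb2*, *Sptb* and *Sst*. For *Fosb* they had 5.08 to 9.89 CPM in KO and 10.1 to 16.5 CPM in WT mice. The share of all genes without overlap in this state alone was not counted. *Grin2b* had a SE of 0.27 around its value of 0.11, and its level in the 24 libraries ran from 22.4 to 147 CPM. The 5 libraries apart on the second component, of both genotypes, had 22.4 to 42.4 CPM, and all others at least 88.0 CPM.

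Within each state alone, fewer genes passed in the main edgeR fit, and the states were then set side by side. There were 18 DEGs in the basal state (0.117% of genes tested) and 28 after open field exposure (0.182%). Both numbers hung on single libraries. The first lay between 4 (without KO basal replicate 5) and 45 (without KO open field replicate 1), and the second between 9 (without WT open field replicate 6) and 258 (without KO open field replicate 5). In the last of these fits the open field alone had more DEGs than both states together, which had 44. With DESeq2 it had more as well (299 against 131). In the main fit, *Cnr1* and *Pdlim1* were DEGs in each state. Among the 17 basal DEGs other than *Cnr1*, 15 had the same sign after open field exposure and 12 also had an unadjusted p-value under 0.05 there. Of the 27 such DEGs of the open field, 18 had the same sign in the basal state and 7 had an unadjusted p-value under 0.05. The contrasts of the states share no library but come from 1 fit with a common estimate of the spread. Over all genes tested, 42.1% had the same sign in both states. The 55 DEGs over both states had the same sign in each state, which the combined test favours. The interaction of genotype and state was called for 0 genes (0%) by edgeR, with a smallest adjusted p of 0.198 (1 gene without WT open field replicate 7), while DESeq2 called 63. At an unadjusted p-value under 0.05 the interaction held 2237 genes, 14.6% of those tested, and 6 of the 55 DEGs.

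Those 6 were *Cnr1*, *Pdlim1*, *Pam*, *Lypd6*, *Lrrtm1* and *Tnfrsf9*. For *Pdlim1* the log2FC was −0.67 in the basal state and −1.07 after open field exposure, and for *Lrrtm1* it was 0.05 and 0.17. *Tnfrsf9* had −1.23 in the basal state and −0.39 after open field exposure. *Cnr1* had −1.23 and −1.45. None of these differences between states passed adjustment.

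**Figure D3:**
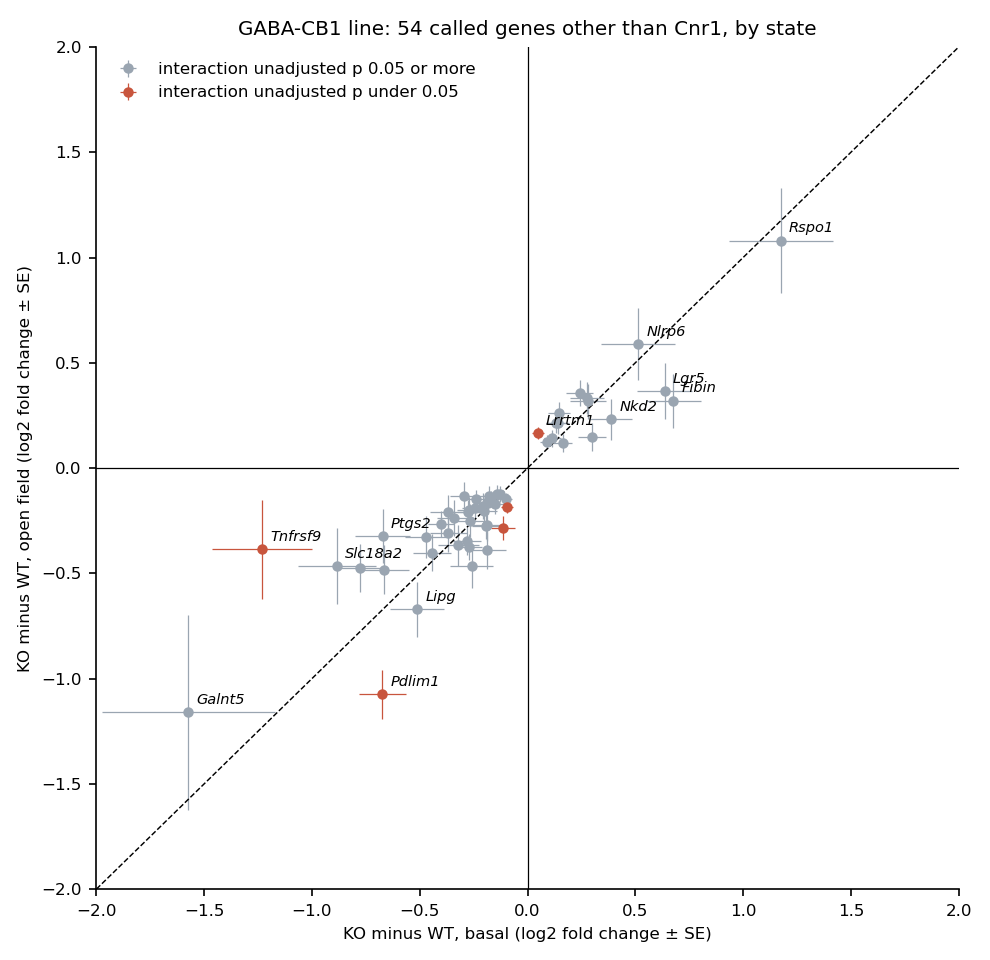
Log2 fold change with SE (KO minus WT) of the 54 DEGs other than *Cnr1* in the basal state (x axis) and after open field exposure (y axis); the dashed line marks equal values and red points have an unadjusted interaction p under 0.05. All points lie in the lower left or upper right quadrant, with *Rspo1* at 1.17 and 1.08 and *Pdlim1* at −0.67 and −1.07.

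The same 55 genes were read in the Glu-CB1 line (nex-cre x CB1f/f), whose KO mice lack CB1 in glutamatergic neurons. It comprised 5 WT and 7 KO libraries in each state, from males of the same age, and shares no library with the GABA-CB1 line. There, 42 of 15355 genes were DEGs over both states (0.274%), 9 of them among the 55. *Cnr1* (−0.73) and *Col11a1* (−0.36, adjusted p = 0.0059) were lower in both lines. Opposite to the GABA-CB1 line, levels in Glu-CB1-KO mice were higher for *Pdlim1* (0.61, adjusted p = 0.001), *Blnk* (0.49, adjusted p = 0.0309), *Crhbp* (0.48, adjusted p = 0.00532), *Sst* (0.36, adjusted p = 0.0419), *Ankrd33b* (0.21, adjusted p = 0.0123) and *Dner* (0.11, adjusted p = 0.0234). In all, 19 of the 55 had the same sign in both lines. The difference between the lines was called for 116 of 15570 genes (0.745%) and for 32 of the 55, which were chosen for their change in 1 of the lines. Without KO open field replicate 3 of the GABA-CB1 line the number over all genes was 71. It was largest for *Rspo1* (1.6, adjusted p = 5.89e-06), *Pdlim1* (−1.48) and *Blnk* (−1.12). For *Gpr83* (−0.25, adjusted p = 0.0582) and *Bdnf* (−0.36, adjusted p = 0.0542) it missed the threshold.

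**Figure D4:**
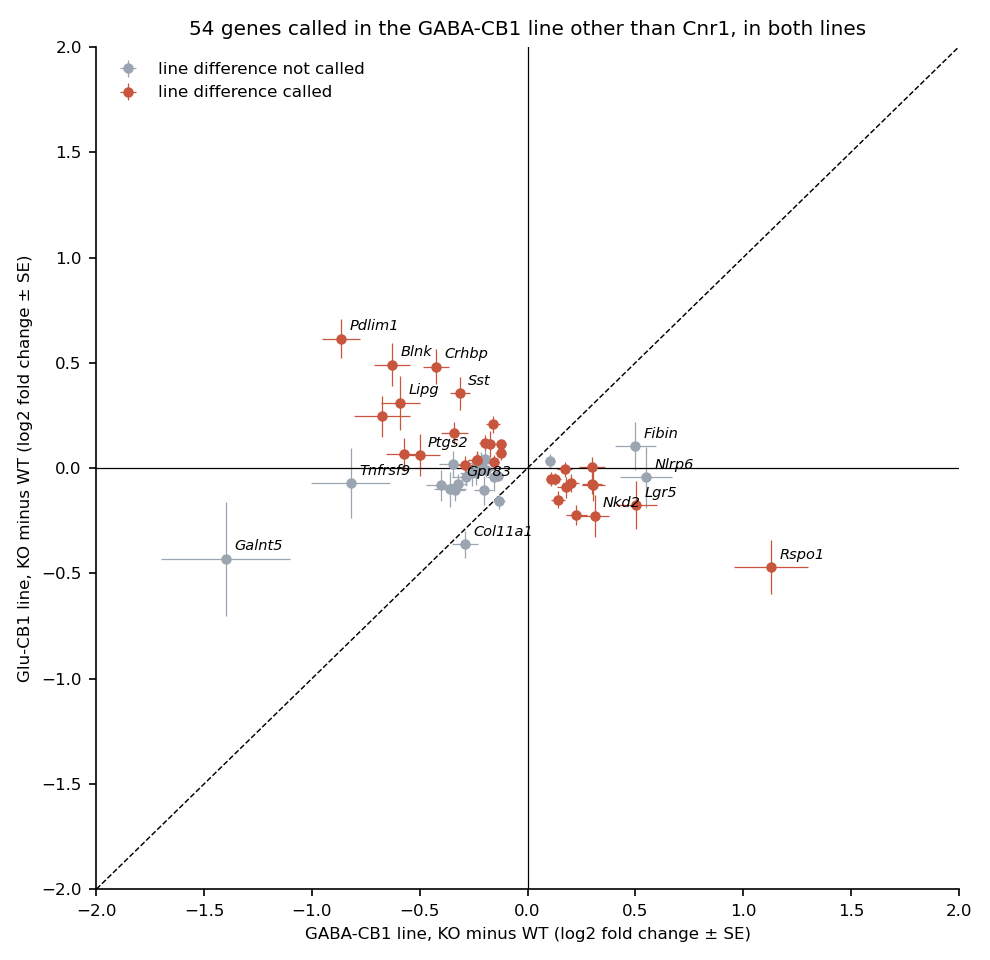
Log2 fold change over both states with SE (KO minus WT) of the 54 DEGs of the GABA-CB1 line other than *Cnr1*, in that line (x axis) and in the Glu-CB1 line (y axis); red points have a called difference between the lines and the dashed line marks equal values. *Pdlim1*, *Blnk*, *Crhbp* and *Sst* lie below 0 in the GABA-CB1 line and above 0 in the Glu-CB1 line, *Rspo1* the other way, and *Col11a1* is lower in both.

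The DEGs were spread over most chromosomes, with none on chromosomes 5, 12, X and Y. The highest shares were on chromosome 19 (6 DEGs, 1.14% of the genes tested there) and chromosome 13 (6 DEGs, 1.06%). Over all genes tested the share was 0.358%. *Pdlim1* and *Blnk*, both lower, lie 657311 bp apart on chromosome 19. *Bdnf* and *Fibin*, which moved in opposite directions, lie 633882 bp apart on chromosome 2. Of 26 tested genes within 5 Mb of the deleted *Cnr1*, none was a DEG, and *Rngtt* and *Akirin2*, next to it, had values of 0.02 and −0.03. Within 5 Mb of *Dlx5* there was none among 31 genes. At the share of all genes, so few genes would hardly hold a DEG, so these counts do not set the flanks apart from other regions. At an unadjusted p under 0.05 there were 2 genes near *Cnr1* and 2 near *Dlx5*, against 8.18% of all genes tested.

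How firmly a call stands differed between the DEGs. In 24 fits that each left out 1 library, 32 of the 55 were called every time. With 12 other fits (another tool, scaling, filter, covariate or set of libraries) 14 were called in all 36, namely *Cnr1*, *Pdlim1*, *Ostf1*, *Gpr83*, *Blnk*, *Gadd45g*, *Sst*, *Rspo1*, *Stard5*, *Lipg*, *Pam*, *Dpy19l3*, *Ier5* and *Lgr5*. No DEG changed its sign in any of them. *Mycl*, *Fars2* and *Cage1* lost the call only in the fit with the replicate number as a block (adjusted p = 0.0551, 0.0555 and 0.0555), and these numbers do not pair the libraries. *Tnfrsf9* was the least stable, with a call in 6 of the 24 fits, and *Aldh1a1* and *Spock3* followed with 8.

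**Figure D5:**
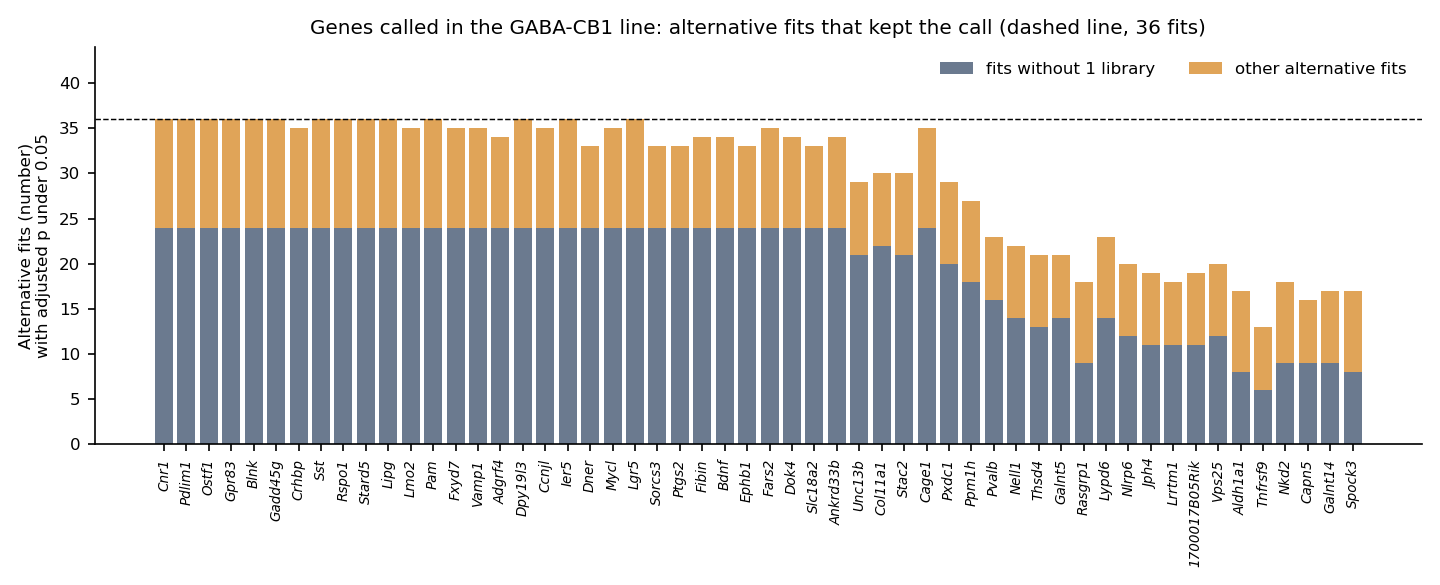
Number of alternative fits (y axis) in which each of 54 DEGs (x axis, in order of their p-value) kept an adjusted p under 0.05, split into 24 fits without 1 library and the other fits; the dashed line marks 36. Genes at the left, such as *Pdlim1*, *Gpr83* and *Blnk*, reach the line, and *Tnfrsf9* is lowest.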

How the data were processed

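Counts of reads per gene were deposited by the authors as 1 table of raw, unnormalised values for 24421 genes and 48 libraries. Total RNA had been amplified with a kit that does not mark strand, and reads were aligned to mm10 with STAR 2.6.0a and counted with featureCounts 1.6.2, as the submitters' processing notes and the study's methods state. The counting used a reverse-strand setting, so overlapping genes on opposite strands are uncertain. All columns matched a sample by name, and 0 columns of other samples were found.

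Genes were filtered with filterByExpr, scaled by TMM and tested with edgeR 4.0.16 (quasi-likelihood F test, R 4.3.3) with state as covariate, and p-values were adjusted by Benjamini-Hochberg. A gene was called at an adjusted p under 0.05. The same test was used for the interaction, each state, the other line and the genotype by line term. Summed marker levels and components (500 most variable genes) were compared by an exact permutation test within states (numpy 2.4.6) over 731808 relabellings. The scripts were tested on simulated data.

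Genes were named if they were *Cnr1*, called and not overlapping between genotypes in both states, called members of a list, named by the study, within 1 Mb of another called gene, *Dlx5*, *Dlx6* or next to *Cnr1*. The other called genes, and uncalled genes beyond this rule, were chosen after their values were seen. A called gene is not reported here by name. The members and lists were chosen with earlier results of these data known. Replicate numbers did not pair the genotypes (correlations of same-numbered libraries from −0.332 to 0.228). The labels do not say that libraries are separate cultures or litters, so p-values measure the spread between these mice only. No pair of libraries agreed within sampling noise (chi-square per degree of freedom at least 2.93 over 61 pairs). Alternatives were DESeq2 1.42.0, other scaling and filters, all 48 libraries, a replicate block and libraries left out.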

Additional observations from a re-analysis of the deposited data

Results flagged for a closer look

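In 15 of 200 groups of libraries 1 value lay far from the rest, where chance gives about 1 in 20 groups, that is 10. Among genes, *Rspo1* was highest in KO basal replicate 6 (2.57 CPM, next 1.92), *Bdnf* and *Fosb* in KO basal replicate 5 (52.9 and 9.09 CPM, next 41.5 and 3.83), *Lgr5* in WT open field replicate 1 (4.2 CPM, next 2.98) and *Slc18a2* in KO open field replicate 1 (4.66 CPM, next 2.53). *Ier5* was lowest in WT basal replicate 1 (18.8 CPM, next 23.7) and *Grin2b* in KO basal replicate 2 (31.1 CPM, next 110.0). The latter is 1 of the 5 libraries apart on the second component, all of which were low in *Grin2b*. Among summed markers, those of CA3 and CA2 pyramidal cells were highest in KO open field replicate 1 (837.0 CPM). Choroid plexus markers stood out in WT basal replicate 3 (2370.0 CPM) and KO open field replicate 4 (5450.0 CPM), and markers of meninges and fibroblasts in the same libraries (160.0 and 236.0 CPM). Markers of hypothalamus and pituitary stood out in KO basal replicate 3 (218.0 CPM) and WT open field replicate 5 (81.0 CPM), and those of astrocytes in KO basal replicate 3 (6560.0 CPM).

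The KO effect differed between the GABA-CB1 and Glu-CB1 lines for 34 called or named genes (edgeR interaction of genotype and line, adjusted p under 0.05), in a test that shares the libraries that chose the DEGs. The difference in log2FC, GABA-CB1 minus Glu-CB1, was negative for *Pdlim1* (−1.48), *Blnk* (−1.12), *Slc18a2* (−0.92), *Crhbp* and *Lipg* (both −0.9), *Npy* (−0.73), *Sst* (−0.67), *Gadd45g* (−0.64), *Cnr1* (−0.61), *Ptgs2* (−0.56) and *Ier5* (−0.5). It was smaller for *Rab3b* (−0.38), *Ankrd33b* (−0.37), *Lmo2* (−0.32), *Stac2* (−0.31), *Pvalb* (−0.29), *Dpy19l3* and *Sorcs3* (both −0.27), *Kcnn2* (−0.26), *Dner* (−0.24), *Ppm1h* (−0.2) and *Vamp1* (−0.19). It was positive for *Rspo1* (1.6), *Lgr5* (0.68), *Nkd2* (0.54), *Stard5* and *Ccnjl* (both 0.38), *Fars2* and *Capn5* (both 0.29), *Mycl* and *1700017B05Rik* (both 0.27), *Dok4* and *Jph4* (both 0.18) and *Vps25* (0.16).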

How the results depend on the processing

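Depth limits the genes under about 1 CPM, such as *Galnt5* and *Tnfrsf9*. All 55 DEGs over both states kept their sign in every fit. Against 55 DEGs, DESeq2 gave 131 (all 55 among them), the replicate block 19, the fit without the 5 libraries apart 35, that without both sets of libraries 22 and that with the 5 as a covariate 83. Libraries left out 1 at a time gave 37 to 137. In the basal state (18), DESeq2 gave 47, the replicate block 7, the fits without the 5, the 2 and both sets 7, 8 and 1, and single libraries left out 4 to 45. The latter count moved by over 1.5 times for every basal library except WT replicate 1, and for WT open field replicates 1 and 6 and KO open field replicate 1. After the open field (28), DESeq2 gave 299, every gene with a count 17, all 48 libraries 106, the replicate block 14, the fits without the 2 and both sets 14 and 7, the covariate 107, and single libraries left out 9 to 258. This moved for WT basal replicate 2, KO basal replicates 2, 4 and 6, WT open field replicates 1, 2, 4, 5 and 6 and all KO open field replicates.

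For the interaction (0), DESeq2 gave 63 and single libraries left out 0 to 1. In the Glu-CB1 line (42), DESeq2 gave 106. For the difference between the lines (116), the fits without the 5 and without both sets gave 65 and 64, and single libraries left out 71 to 174. Of the marker lists and components, 1 passed, against 0 with mean log2 CPM, 0 without the 5, 0 without the 2 and 0 to 2 with single libraries left out. The causes were not tested. The fits that concern the 5 and the 2 libraries were chosen after seeing the data. KO open field replicate 1 was likewise singled out after seeing the data, by its values in the DEGs. Since the numbers do not pair the libraries, a call lost under the replicate block cannot be read as a weaker effect. That fit is still 1 of the 36 by which the firmness of the calls was counted.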
